A study of Mus musculus with 12 samples.

Results

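Myc was followed through every probe whose only gene symbol in the platform annotation is Myc. There were 4 such probes, and they stand for 1 of 10225 named genes on the array. Myc was chosen because it is higher under shear, so its own levels and changes are given as a description with no test. The mouse gene (Entrez gene 17869) lies at chr15:61985341-61990361 in GRCm38.p6, a span of 5021 bases. All 4 probes had a value in all 12 samples.

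The samples are total RNA of MC3T3-E1, which is a single clone derived from the skull bone of a newborn mouse and resembles osteoblasts. The 6 shear samples came from confluent monolayers on glass slides, exposed in a parallel plate chamber to pulsatile flow of 5 dyn per square centimetre at 1 Hz for 5 h, with 1% serum in the medium. The 6 control samples were kept static in the same apparatus, also with 1% serum in the medium. Whether the samples of a group were separate cultures is not stated in the labels. The p-values measure only how these samples vary, and that variation may be technical. Per the labels, each of 6 spotted 2-colour arrays took a pair of samples of the same condition, odd replicates in Cy5 and even ones in Cy3. That replicates 1 and 2, 3 and 4, and 5 and 6 shared an array is inferred from the design and the dyes. Each array held 1 group, so each group rests on 3 arrays. Between 18434 and 23790 of 28704 features had a value per sample.

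Myc encodes a transcription factor of the basic helix-loop-helix leucine zipper class. It binds DNA as a dimer with Max, most often at the E-box CACGTG, and is known for raising genes of ribosome production, nucleotide synthesis, glucose uptake and the cell cycle. Proteins of the Mxd family, Mnt and Mga compete with it for Max. Its transcript is short-lived and is known as an early response gene of growth factor stimulation.

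The deposited value is the log2 of a spot's net fluorescence over the median of its block of the array, so 0 is the median spot of the block. Of the 4 probes, 16782 was measured in all samples with the highest mean, and it stood for Myc in the fit. Its log2 signal was 2.61, 3.19, 2.86, 2.69, 3.10 and 3.25 in shear samples 1 to 6. In control samples 1 to 6 it was 1.21, 1.51, 0.66, 0.91, 1.24 and 1.06. The lowest shear sample lay 1.11 above the highest control sample, so the groups did not overlap. The mean was 2.95 ± 0.27 in shear samples and 1.10 ± 0.29 in control samples (SD, n = 6 each). That is a log2 change of 1.85 ± 0.28 (SE), or 3.61-fold. In these bulk samples more transcript per cell and more cells with the transcript cannot be told apart. Groups without overlap and with shear above control were found for 5.76% of the 15601 features tested, and since Myc was chosen on this contrast nothing is read from that share.

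Probe 20109 gave a like picture. It read 2.25, 3.17, 2.47, 2.34, 2.11 and 2.26 in shear samples 1 to 6, against 0.50, 0.90, 0.24, 0.43, 0.97 and 1.00 in control samples 1 to 6. Shear 2 stood highest, and every shear sample lay above every control sample, with a gap of 1.10. The change was 1.76 ± 0.32 (SE), or 3.38-fold. Probe 17555 was dimmer throughout. It read 1.23, 1.25, 0.72, 0.83, 1.47 and 1.07 in shear samples 1 to 6, and in control samples 1 to 6 it read -0.98, -0.60, -1.04, -0.84, -0.56 and -0.28. All control samples lay below the block median and all shear samples above it. The gap was 0.99 and the change 1.81 ± 0.28 (SE), or 3.51-fold.

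The changes of these 3 probes lay within 1 SE of one another, although their brightness differed. Averaged over the 3, the log2 signal ran from 1.95 to 2.54 in shear samples and from -0.05 to 0.60 in control samples. The mean change was 1.81, or 3.50-fold. Across the 12 samples the 3 probes correlated with r = 0.941 to 0.957. These values hold the difference between the groups, and the samples share arrays. After the group means were removed the correlations were 0.41 to 0.50, so the probes shared part of the order of samples within a group.

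**Figure D1:**
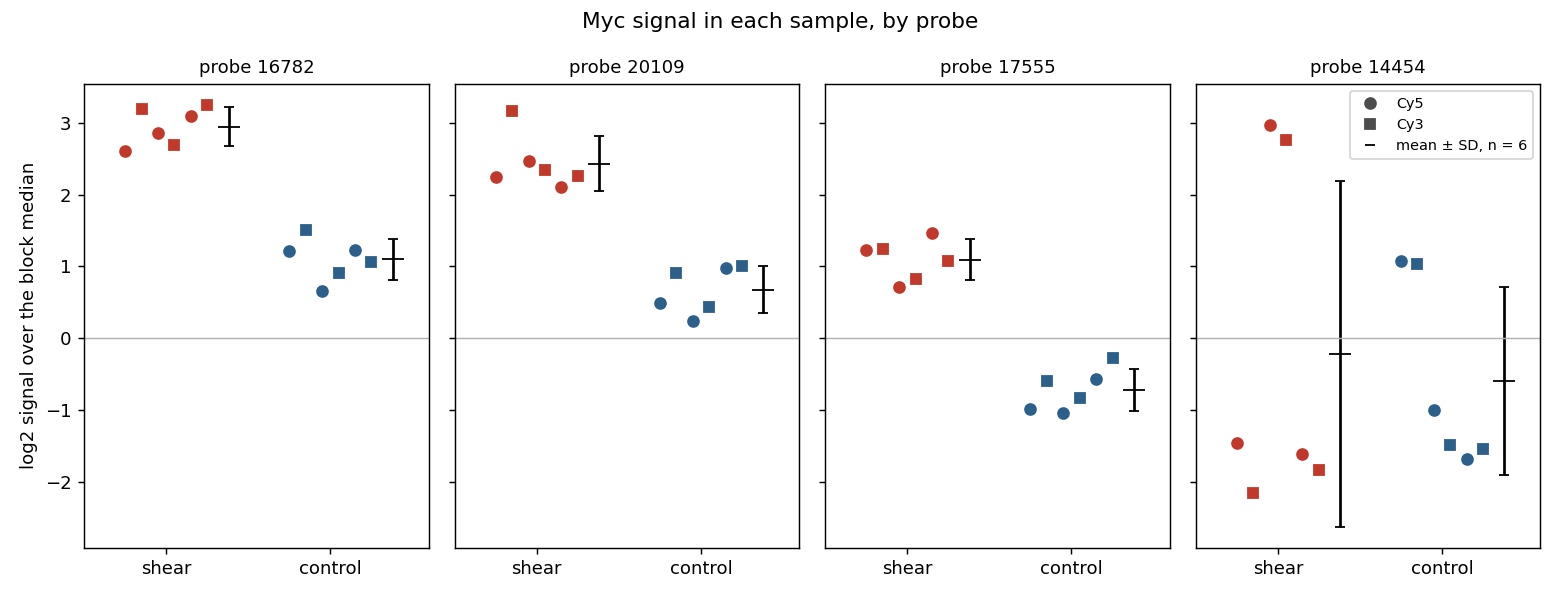
Log2 signal over the block median (vertical axis) of the 4 Myc probes in each of the 6 shear samples (red, left) and 6 control samples (blue, right), with circles for Cy5, squares for Cy3 and bars for the mean ± SD. Probes 16782, 20109 and 17555 show no overlap between groups, with changes of 1.85, 1.76 and 1.81, while the values of probe 14454 overlap.

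The rank of the spot among all measured spots of the same sample describes how bright it was, which is not the same as transcript abundance. Probe 16782 stood at percentile 94.1 ± 1.34 in shear samples and 73.8 ± 5.50 in control samples (SD, n = 6 each). The shear samples ranged from 92.3 to 95.7 and the control samples from 64.8 to 80.9. Its net fluorescence was 2750 to 11280 units in shear samples and 855 to 1653 units in control samples. In control cells the spot was thus already brighter than most spots on the array. Probe 20109 averaged percentile 90.3 in shear samples and 65.3 in control samples, and probe 17555 averaged 72.1 in shear samples and 34.3 in control samples. On the 6 arrays the Cy5 sample minus the Cy3 sample ranged from -0.58 to 0.17 for probe 16782, with a mean of -0.15. It ranged from -0.92 to 0.12 for probe 20109 and from -0.39 to 0.40 for probe 17555. These differences were smaller than the shear changes of the same 3 probes.

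The fourth probe, 14454, did not follow the others. It read -1.46, -2.15, 2.97, 2.77, -1.61 and -1.83 in shear samples 1 to 6. In control samples 1 to 6 it read 1.08, 1.04, -0.999, -1.49, -1.68 and -1.54. Shear 3 and 4 and control 1 and 2 stood high, and these are both samples of 1 shear array and of 1 control array. The change was 0.38 ± 0.95 (SE), and the groups overlapped. Over the 12 samples its correlation with the other Myc probes was between -0.07 and 0.07.

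The features around probe 14454 were then compared between arrays, a step chosen after its values had been seen. The probe lies in block 25 of 48, which holds features 14353 to 14950. On 4 arrays, taken as the reference, this block agreed in place with the mean of the others among them, with r = 0.964 to 0.971. Against the mean of these 4, the array of control 1 and 2 agreed in place with r of only 0.32, over 194 features. When its readings were set against those 26 features further on, r was 0.973 over 238 features, the best of 601 moves tried. The array of shear 3 and 4 gave 0.656 in place and 0.705 after the same move. Between pairs of arrays, a different measure, the lowest correlation in place in block 25 was 0.321. In any of the other 47 blocks the lowest such correlation was 0.691, and it was 0.936, 0.894 and 0.908 in the blocks that hold probes 16782, 17555 and 20109.

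Probe 14480, which is 26 features after 14454, carries another gene's name. On the 4 arrays that agree in place it read 2.31, 2.79, 2.19 and 2.37 in shear samples 1, 2, 5 and 6, against 0.89, 0.75, 0.83 and 0.83 in control samples 3 to 6. These levels are close to those of probe 14454 on the remaining arrays, which were 2.97 and 2.77 in shear 3 and 4 and 1.08 and 1.04 in control 1 and 2. In those same samples Myc probe 16782 was also close, with 2.86 and 2.69 in shear 3 and 4 and 1.21 and 1.51 in control 1 and 2. Myc probes 20109 and 17555 were lower there. Probe 14480 itself read 0.62 and 1.00 in shear 3 and 4, and -0.38 and -0.81 in control 1 and 2. Which alignment carries the annotated cDNA was not settled. For genes of the block that have probes elsewhere, mean signal levels on the 4 arrays that agree in place were set against those probes. The correlation of levels was 0.22 in place (113 genes) and 0.27 after the move (108 genes). No value of Myc other than those of probe 14454 and of the mean over all 4 probes rests on this block.

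**Figure D2:**
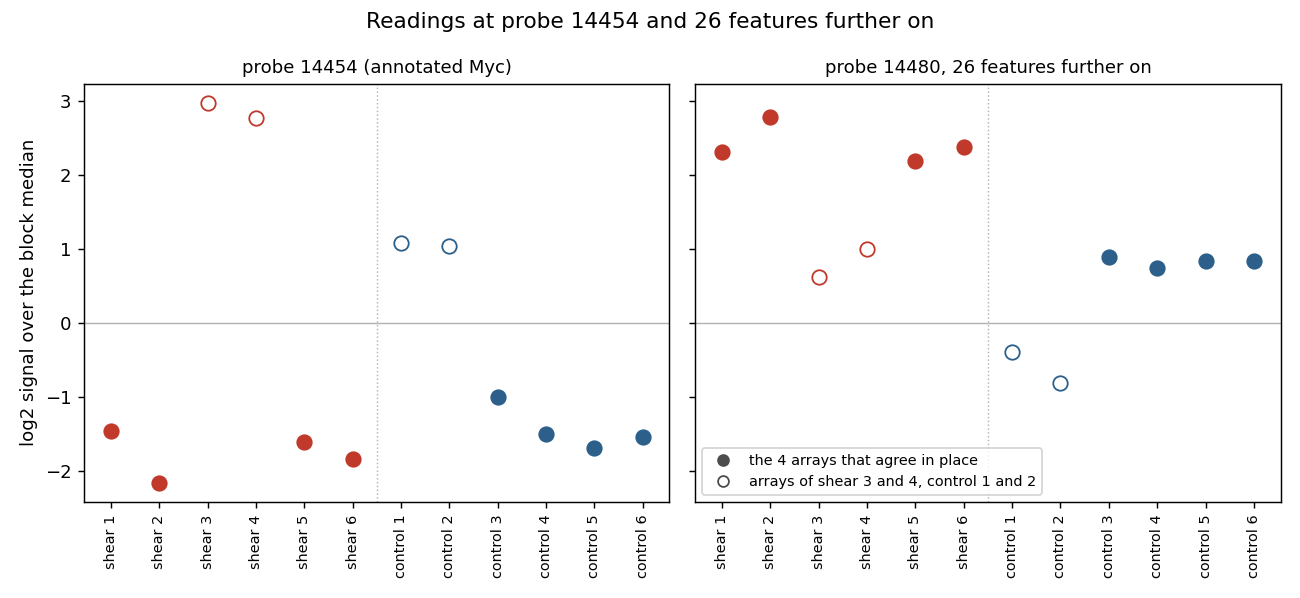
Log2 signal over the block median (vertical axis) of probe 14454 (left panel) and of probe 14480, 26 features further on (right panel), in the 6 shear (red) and 6 control (blue) samples, with open circles for the arrays of shear 3 and 4 and of control 1 and 2. The open circles at probe 14454, from 1.04 to 2.97, lie near the filled ones at probe 14480, from 0.75 to 2.79.

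Myc was set among the other genes by its change. With limma and Benjamini-Hochberg adjustment at 0.05, 232 of 15601 features passed, 200 higher and 32 lower under shear. Centred on the features measured in all samples the split was 164 higher and 75 lower, and after cyclic loess it was 165 and 74. Without the array of shear 3 and 4, 38 features passed. The median change over all features was 0.11 as deposited, -0.02 with that centring and -0.01 after cyclic loess. Of the named genes 140 passed as higher, which is 1.57% of those tested. By change alone Myc ranked 54 of 8926 named genes. Just above it stood Rassf1, a tumour suppressor that binds microtubules, with 1.87 ± 0.27 (SE), then Lrrfip1 with 1.87 ± 0.42 and Esd with 1.86 ± 0.33. Just below it were Xpot, the nuclear exporter of tRNA, with 1.82 ± 0.64, Slc35b4 with 1.82 ± 0.61 (its other probe gave -0.04) and Rsl1d1, a nucleolar protein, with 1.81 ± 0.36. The other probes of Lrrfip1 gave 0.71 to 2.35, those of Xpot 0.68 and 0.83, and those of Rsl1d1 0.40 and 1.65. Xpot and Slc35b4 did not pass, and Xpot read 3.22 to 3.67 in shear samples against 0.18 to 3.87 in control samples, where control 5 and 6 stood high.

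The partners and antagonists of Myc did not pass the test. Of 33 genes listed for the Myc network, 27 were tested, and by limma with Benjamini-Hochberg adjustment 0 passed in either direction, with 4 at an unadjusted p below 0.05. Over all features 1.49% passed in either direction, and 2156 of 15601 had an unadjusted p below 0.05. The median change of the 27 was 0.15, against 0.11 over all features, and 20 were above 0. Max, the obligate partner, had a change of 0.51 ± 0.50 (SE). Its only probe was dim, from -3.38 to -0.93 in 5 shear samples and from -3.34 to -2.72 in 4 control samples, and it lies in block 25 with probe 14454. Its highest shear values, -1.56 and -0.93, were those of shear 3 and 4, and the other 3 were -3.38, -2.72 and -3.36. Over the alternatives its change ran from -0.17 to 0.83, so its sign was not stable. Mycl, a paralog of Myc, was dim as well, with means of -1.64 ± 0.24 in 6 shear samples and -2.15 ± 0.57 in 5 control samples (SD). Mycn, Mycs, Mxd1, Mxd3 and Ruvbl1 were among the genes not tested.

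Among the antagonists, Mxd4, a repressor that pairs with Max, had a change of -0.41 ± 0.24 (SE). It read 2.31 to 2.96 in shear samples and 2.76 to 3.53 in control samples, so the groups overlapped. Its 4 other probes gave -1.15, -0.31, -1.37 and -0.15. Mxi1, of the same family, had 0.22 ± 0.21 (SE), Mnt 0.22 ± 0.35 and Mga 0.29. The parallel factors Mlx, Mlxip and Mlxipl had 0.27, 0.05 and -0.38, and the other probe of Mlx gave -0.31. Zbtb17, through which Myc represses genes, had 0.43. None of these changes was called.

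The highest member of the network was Hcfc1, a chromatin-bound host cell factor that binds Myc. It read 2.66 to 3.63 in shear samples and 2.05 to 2.82 in control samples, a change of 1.01 ± 0.26 (SE) with an adjusted p of 0.0740 by limma. Wdr5, a histone methyltransferase subunit that docks Myc on chromatin, had 0.61. Actl6a, a chromatin remodelling subunit, had 0.65, while its other probes gave -0.15, 0.08 and 0.32. Ccnt1, the cyclin of the elongation kinase, had 0.63, and its kinase Cdk9 had 0.21. The acetyltransferase scaffold Trrap had 0.15, with Kat5 at 0.08, Kat2a at 0.07 and Ep400 at -0.12. The corepressor scaffold Sin3a had the lowest change of the list, -0.49.

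The largest list was that of genes known as Myc targets. Of 113 listed genes 85 were tested, and 9 were called higher, which is 10.6%, against 1.28% of all features. None was called lower. The median change was 0.51, against 0.11 over all features, and 74 of the 85 were above 0, as were 9515 of the 15601 features. The list was put together with earlier results of these data known, so its count is a description. With each array averaged to 1 value 2 target genes were called, and without the array of shear 3 and 4 none was. The 9 genes were Slc2a1, Rrs1, Mthfd2, Gnl3, Ddx21, Nip7, Rabepk, Nop58 and Ppan. None of the tested targets lies in block 25.

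Slc2a1, the basal glucose transporter, had the largest change of the list. It read 3.08, 2.15, 3.23, 3.27, 3.18 and 2.97 in shear samples 1 to 6, against 1.13, 0.99, 0.62, 0.94, 1.02 and 0.73 in control samples 1 to 6. Shear 2 was the lowest of its group and still above every control sample. The change was 2.08 ± 0.33 (SE), or 4.22-fold, with an adjusted p of 0.00699 by limma, and its other probe gave 1.96. Without the array of shear 3 and 4 its adjusted p by limma was 0.0585, and without that of shear 5 and 6 it was 0.0545. Of the other transport and glycolysis genes, 5 were tested and none passed. The next was Slc19a1, the reduced folate carrier, with 1.06 ± 0.26 and an adjusted p of 0.0650 by limma, while its other probe gave 0.11. Ldha, the lactate dehydrogenase subunit, had 0.19.

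Ribosome production, the largest role with 34 of the 85 tested targets, held most of the calls. Of its 34 genes 6 passed, 31 were above 0, and the median change was 0.87. Glycolysis and membrane transport had 1 call among 6 tested genes, and over all features 1.28% were called higher. Ddx21, a nucleolar RNA helicase, read 2.39, 2.18, 3.01, 2.92, 2.20 and 2.68 in shear samples 1 to 6, against 0.92, 1.29, 1.04, 0.92, 1.10 and 1.25 in control samples 1 to 6. The groups were far apart, with a change of 1.48 ± 0.27 (SE) and an adjusted p of 0.0193 by limma, and its other probes gave 1.79 and 2.01. Gnl3, the nucleolar GTPase nucleostemin, read 1.59 to 2.19 in shear samples and -0.26 to 0.78 in control samples. Its change was 1.50 ± 0.29 (SE), with an adjusted p of 0.0239 by limma. Rrs1, a ribosome assembly factor, read 1.10 to 2.62 in 6 shear samples and -0.66 to 0.24 in 4 control samples. Control 1 and 2 had no value for Rrs1. Its change was 1.90 ± 0.37 (SE), with an adjusted p of 0.0282 by limma.

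Nip7, a factor in the maturation of the large ribosomal subunit, read 1.27 to 2.53 in shear samples and -0.42 to 0.69 in control samples. Its change was 1.44 ± 0.31 (SE), with an adjusted p of 0.0365 by limma, and its other probe gave 1.75. Ppan, which also acts in large subunit assembly, had 1.03 ± 0.22 (SE), with an adjusted p of 0.0322 by limma. Nop58, a core protein of box C/D ribonucleoproteins, had 1.09 ± 0.26 (SE), with an adjusted p of 0.0488 by limma. Its other probes gave -0.79, 0.11 and 1.47, so its probes did not share a direction.

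Probes of 1 gene differed elsewhere in this role as well. When every probe was tested as a feature of its own, 354 of 21883 probes passed, 310 higher and 44 lower. In that fit 14 target genes had a probe that passed, 13 with a higher and 1 with a lower one. A gene with several probes has more chances to be counted, so this count is not like the one above. Mphosph10, Mrto4, Nop56 and Dkc1 joined the higher ones, with probe changes of 1.65, 1.45, 1.39 and 1.63, and are named after their values were seen. For Nop56, which pairs with Nop58, the probe that stood for the gene gave only 0.14. Ncl, the abundant nucleolar protein nucleolin, was the gene with a lower probe. Its 5 probes gave -0.80, -2.48, -1.08, 0.09 and 0.49. The probe that stood for it read -0.02 to 2.44 in shear samples and -0.55 to 3.79 in control samples, where control 1 and 2 lay far below the other control samples. The lowest change of the list was that of Tcof1, a cofactor of ribosomal RNA synthesis, at -1.09 ± 0.62 (SE), while its other probes gave 0.51 and 0.53.

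**Figure D3:**
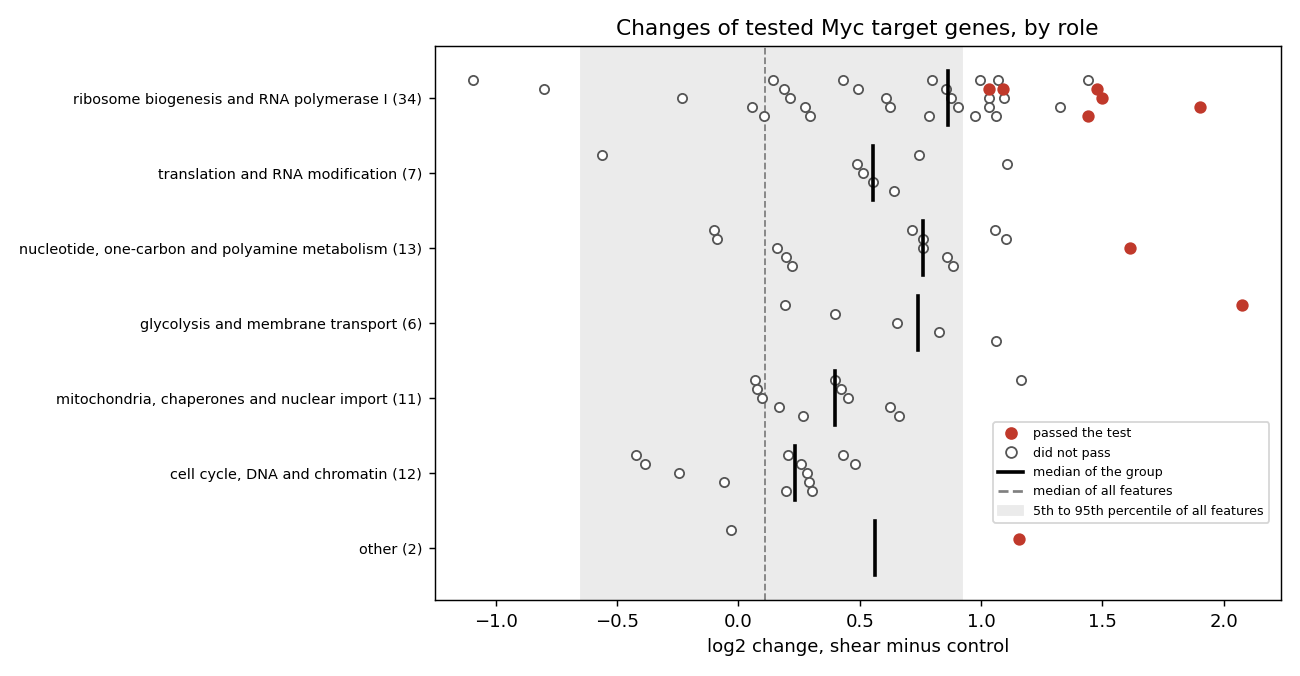
Log2 change, shear minus control (horizontal axis), of the 85 tested Myc target genes in 7 roles (vertical axis, number tested in brackets), with red points for genes that passed, open points for the others, black bars for the median of each role, and all features as a dashed median at 0.11 with a grey 5th to 95th percentile band. Ribosome production, the largest role with 34 genes, has the highest median, 0.87, and 6 of the 9 calls, while the cell cycle genes lie around 0.23.

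The other roles held 3 calls. Mthfd2, the mitochondrial enzyme of one-carbon metabolism, read 1.00 to 1.73 in shear samples and -0.86 to 0.43 in control samples. Its change was 1.61 ± 0.38 (SE), with an adjusted p of 0.0486 by limma, and it was the only call among 13 tested genes of nucleotide, one-carbon and polyamine metabolism, whose median was 0.76. Rabepk, which binds the endosomal GTPase Rab9, had 1.16 ± 0.23 (SE), with an adjusted p of 0.0284 by limma, while its other probe gave -0.13. Translation genes had a median of 0.55 over 7 tested, with no call. Chaperones, mitochondrial proteins and importins had a median of 0.40, and all 11 were above 0 with no call. The chaperone Hspa4 came nearest, with 1.16 ± 0.29 and an adjusted p of 0.0709 by limma, while its other probe gave 0.52. The 12 cell cycle, DNA and chromatin genes had a median of 0.23, with no call and 8 above 0. Cdk4, the kinase of the G1 phase, was the lowest of these at -0.42. No role was tested against another.

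The promoters of these genes were searched for the E-box CACGTG, which reads the same on both strands, and for its variant CACGCG on either strand. The window ran from 250 bases before to 50 after each gene's start, in RefSeq sequence of GRCm38.p6. CACGTG stood in 19 of 77 tested targets with a sequence, or 24.7%, against 11.9% of 7125 tested genes and 8.09% of 27025 genes. The tested targets with CACGTG had a median change of 0.51, and the 58 without it had 0.58. Of the 8 called targets with a sequence, 0 held CACGTG and 3 held CACGCG. The variant stood in 29.9% of the tested targets and in 19.8% of the tested genes. A match is only a run of letters, and no binding was measured here. The stretches below are shown to set the called target Nip7, with the variant, beside targets with CACGTG from several roles, and beside the Myc antagonists Mnt and Mxd4 and their partner Mlx, which hold the same letters. Each is written 5′ to 3′ on the strand of its gene, with the motif in capitals.
Nip7, chr8:107056809-107056868, + strand: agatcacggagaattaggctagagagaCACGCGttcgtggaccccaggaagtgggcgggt
Nop2, chr6:125131796-125131855, + strand: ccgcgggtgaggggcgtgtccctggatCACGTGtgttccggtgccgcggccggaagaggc
Paics, chr5:76951072-76951131, + strand: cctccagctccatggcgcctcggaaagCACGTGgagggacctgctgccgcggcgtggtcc
Eif4e, chr3:138527018-138527072, + strand: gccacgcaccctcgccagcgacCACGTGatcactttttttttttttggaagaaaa
Hspd1, chr1:55088291-55088350, - strand: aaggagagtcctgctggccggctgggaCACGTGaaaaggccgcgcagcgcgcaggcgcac
Mlx, chr11:101087223-101087282, + strand: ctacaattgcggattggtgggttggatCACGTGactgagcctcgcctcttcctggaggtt
Mnt, chr11:74830774-74830833, + strand: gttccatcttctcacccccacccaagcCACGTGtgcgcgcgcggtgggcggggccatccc
Mxd4, chr5:34187897-34187956, - strand: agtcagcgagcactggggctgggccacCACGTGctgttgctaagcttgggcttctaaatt

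Of these 8 genes Nip7 alone passed the test. Nop2, a methyltransferase of ribosomal RNA, had a change of 1.04 ± 0.28 (SE) with an adjusted p of 0.0916 by limma. It read 1.55 to 2.38 in shear samples and 0.37 to 1.42 in control samples. Paics, an enzyme of purine synthesis, had 0.86 ± 0.92 (SE), with control samples from 0.01 to 4.43. Eif4e, the cap-binding translation factor, had 0.74 ± 0.23, while its other probe gave 0.20. The mitochondrial chaperone Hspd1 had 0.66 ± 0.26, and its other probes gave 0.49, 0.06 and 0.43. The changes of Mlx, Mnt and Mxd4 are those given above, from -0.41 to 0.27.

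Genes known to be repressed by Myc gave no call. Of 23 listed, 14 were tested, with 0 called in either direction by limma, 3 at an unadjusted p below 0.05, and a median change of -0.07. Over all features 1.49% were called in either direction, 2156 of 15601 had an unadjusted p below 0.05, and the median change was 0.11. Txnip, an arrestin that holds back glucose uptake, had the lowest value. It read 1.28, 1.51, 1.78, 1.29, 1.27 and 0.08 in shear samples 1 to 6, against 3.74, 3.43, 2.66, 3.28, 2.76 and 2.37 in control samples 1 to 6. The change of -1.84 ± 0.47 (SE) had an adjusted p of 0.0752 by limma, and its other probes gave -1.69 and 0.14. Cdkn1a, the cell cycle inhibitor p21, was on the other side of 0, with 1.11 ± 0.48 (SE) and an adjusted p of 0.313 by limma. Cdkn2c, another such inhibitor, had -0.75 on the probe that stood for it and 0.78 on its other probe, and the stress gene Ndrg1 had 0.67.

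Genes that act on Myc itself were listed as well. Of 79 such regulators 54 were tested, and 1 was called higher, which is 1.85% against 1.28% of all features. The median was 0.18, against 0.11 over all features. An unadjusted p below 0.05 was found for 11 of the 54, and for 2156 of the 15601 features. The call was Zfp36l2, an RNA-binding protein that promotes the decay of mRNAs with AU-rich elements. It read 3.95, 3.84, 4.58, 4.38, 4.01 and 3.89 in shear samples 1 to 6, against 2.39, 1.82, 0.95, 1.62, 1.38 and 1.33 in control samples 1 to 6. The gap between groups was wide, with a change of 2.53 ± 0.35 (SE), or 5.76-fold, and an adjusted p of 0.00339 by limma. Stat3, a transcription factor that acts on the Myc promoter, had 1.14 ± 0.29 and an adjusted p of 0.0752 by limma, while its other probe gave 0.33. Ppp2ca, a phosphatase subunit that acts on the Myc protein, had 0.93. Usp36, a nucleolar enzyme that removes ubiquitin from it, had 0.90. Map2k1, a kinase of the growth factor pathway, had 0.95, and Zfp36, a relative of Zfp36l2, had 0.78. These 4 did not pass.

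The genes with values most like those of Myc were sought among 7776 named genes measured in all 12 samples, by Pearson correlation with probe 16782. The 10 highest lay between r = 0.971 and r = 0.989. They were Sntb2, Guca2a, Nmd3, Glrx5, Eif2s2, Coq10b, Slc20a1, Tubg1, Akirin1 and Slc7a1. The correlation runs over samples that share arrays and the group difference, so it is high for any gene with a large difference and little spread. Sntb2, which encodes a syntrophin, was the nearest, at 2.78 to 4.19 in shear samples and -0.83 to 0.26 in control samples. Slc20a1, which takes up phosphate with sodium, read 2.78 to 3.68 in shear samples and -0.89 to -0.20 in control samples. Nmd3, the export adaptor of the large ribosomal subunit, read 0.82 to 1.29 in shear samples and -0.36 to -0.07 in control samples. Guca2a was near the block median or below, at -0.53 to 0.21 in shear samples and -2.10 to -1.26 in control samples, and its other probe gave a change of 0.01. Tubg1 had a change of 2.35, while its other probe gave -0.33. The other probes of Eif2s2 gave 1.00, 1.23 and 0.30, and those of Akirin1, Slc20a1 and Slc7a1 gave 0.86 to 3.55.

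**Figure D4:**
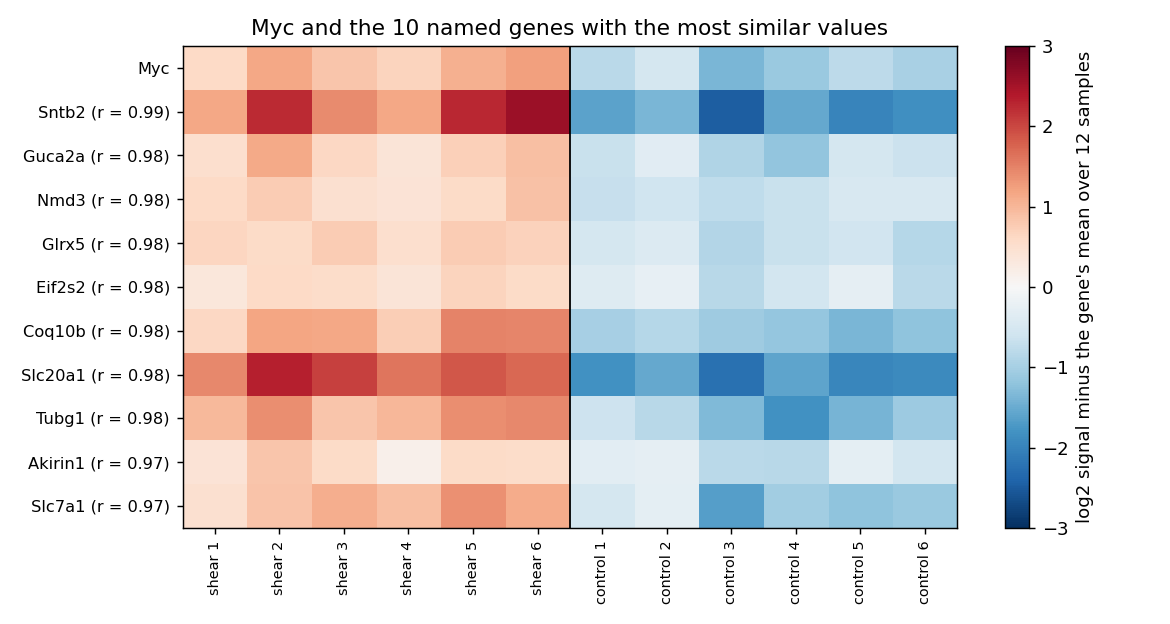
Log2 signal minus the gene's mean over the 12 samples (colour), for Myc (probe 16782) and the 10 named genes with the highest correlation with it (rows), in the 6 shear samples (left of the line) and 6 control samples (right). All 11 genes are above their mean in the shear samples and below it in the control samples, with r from 0.971 to 0.989.

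Once the group means were removed, other genes came first. The correlation of deviations was 0.940 for Rbm3, a cold-inducible RNA-binding protein, 0.918 for Ss18l2, 0.889 for Mad2l2, 0.863 for Gm5124 and 0.859 for Psmd12, a subunit of the proteasome lid. None of these 5 genes passed the test between groups. The deviations come from samples that share arrays. The Psmd12 probe, 16780, lies in block 29 of the array with Myc probe 16782, and the part of a shared block was not tested. The 10 genes above had a median correlation of deviations of 0.708, against 0.978 for their values.

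The markers of the cell line were read as a check of its label. Sparc and Col1a2, matrix genes of osteoblasts, were bright, with means of 5.60 and 4.45 in shear samples and 5.48 and 4.40 in control samples. Of 12 osteoblast markers 6 were tested, and Dlx5, a homeobox factor, was called lower by limma, with a change of -0.97 and an adjusted p of 0.0492. Over all features 0.205% were called lower. The call of Dlx5 lies next to the threshold of 0.05, and how it held under other settings is not given here. Col1a1 had means of 1.40 in shear samples and 1.65 in control samples, and single samples ranged widely. Alpl, the bone alkaline phosphatase, had means of -0.95 in shear samples and -1.01 in control samples, and Msx2 had -2.28 and -1.65. Of 4 macrophage and 3 endothelial markers tested none passed, with changes from -0.68 to 0.40. Tyrobp, of the first, averaged 1.77 in shear samples and 1.49 in control samples, and Cldn5, of the second, averaged 1.75 and 1.35. The other macrophage and endothelial markers were dimmer, though most still had means above the block median. Fcer1g averaged 1.34 in shear samples and 1.00 in control samples, and Cdh5 averaged 0.93 and 0.61. Lyz2 averaged 0.39 in 4 shear samples and 1.07 in 6 control samples. Cd68 averaged -0.63 in shear samples and -0.92 in control samples, and Tek averaged -1.25 and -1.11. Their part in the results was not tested.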

How the data were processed

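Per the labels, total RNA was reverse transcribed into cDNA with Cy5 or Cy3 and hybridised to spotted arrays. The authors deposited log2 values, 1 per feature and sample. In 576 of 576 combinations of block and sample whole-number net fluorescence over the block median gave back the deposited values. The sources used here do not give the scanner, the background correction or the rule for missing spots. The number of arrays limits the precision.

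Of the probes, 18511 had 1 symbol, 937 several and 9256 none, and 18267 symbols were updated by Entrez number. The probe with values in most samples, and among equals the brightest, stood for a gene. Features needed values in 4 of 6 samples per group. limma 3.58.1 (R 4.3.3, data.table package 1.17.8) fitted group and dye, with the array as a random block (correlation 0.737), and p-values were adjusted by Benjamini-Hochberg over 15601 features with a threshold of 0.05. The groups hold 3 arrays each while degrees of freedom count samples, so p-values can be too small. The fit was tested on simulated data, where it recovered 33% of features given a log2 change of 1 and 90% of those given 2. Of its 131 calls 8 were false. In that simulation a true change of 1 was thus missed more often than found. Summaries were made in Python 3.11.15 with pandas 2.3.3 and numpy 2.4.6, and figures with matplotlib 3.10.9.

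Named genes were all Myc probes and network members, up to 8 called and the 5 next by p of each list, the 3 neighbours above and below Myc by change, and the genes most like it. Ppan, Ldha, Paics, Eif4e, Hspd1, Cdk4, Ncl, Tcof1, the 4 genes named with the every-probe fit and the markers fall outside that rule. Myc and the lists were chosen with earlier results of these data known.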

Additional observations from a re-analysis of the deposited data

Results flagged for a closer look

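Dixon's test for 1 value standing apart was run on 152 groups of samples, and 10 were found, where chance alone gives about 1 in 20. Among the Myc probes, shear 2 was highest at probe 20109, with 3.169 against 2.465 for the next. Shear 2 was also the lowest for Slc2a1, with 2.149 against 2.973, for Mlx, with 0.4657 against 1.242, and for Mga, with -0.007681 against 0.3874. Shear 3 was highest for Smarcb1, with 2.447 against 2.144, and lowest for Xpot, with 3.224 against 3.592. Shear 6 was lowest for Txnip, with 0.08246 against 1.274. Control 1 was highest for Hcfc1, with 2.816 against 2.333. Control 3 was lowest for Mycl, with -3.148 against -2.025, among 5 values. Control 4 was lowest for Mlxipl, with -1.674 against -0.7549.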

How the results depend on the processing

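The Myc change of 1.85 kept its direction and size in 29 of 30 alternatives and lay between 1.78 and 1.93 when single samples were left out. Settings of the array block, array averaging, dye term, replicate term, filter or features tested could not alter it. The reason is that probe 16782 had a value in every sample and the groups were balanced. Over all 30 alternatives this probe gave 1.62 to 1.98. The Myc change moved to 1.45 as the mean over all 4 probes, which takes in probe 14454. Over features measured in all samples the mean percentile was 92.4 in shear samples and 68.1 in control samples. The median correlation of the 10 most similar genes was 0.708 by deviations from group means and 0.989 by array means. Counts depended more on the fit. Features called were 232, against 133 with quantile normalization, 1716 with no array block, 72 with arrays averaged, 366 with no dye term and 354 with every probe tested. Target genes called were 9, against 4, 32 and 2 in the first 3 of these fits. With every probe they were 14, where 1 passing probe is enough to count a gene. With no array block 4 network genes, 2 repressed genes and 11 regulators were called. Without the dye term 1 repressed gene and 3 regulators were called, and with cyclic loess 1 repressed gene. Replicate numbers do not pair the samples: same-numbered deviations correlated with -0.091 to 0.116, and 1 of 6 numbers was its own best match. With the replicate block, for which the dye term was dropped because the number fixes the dye, 100 features and 4 target genes were called. Leaving out single samples gave 104 to 244 features and 3 to 10 target genes, with 3 target genes without control 3, shear 1 or shear 6 and 5 without control 1 or shear 3. Without the arrays of control 1 and 2, control 3 and 4, and control 5 and 6, the features called were 117, 123 and 83, and target genes 3, 2 and 2. Without those of shear 1 and 2, shear 3 and 4, and shear 5 and 6, they were 139, 38 and 67, and target genes 4, 0 and 1. The causes were not tested. Zfp36l2 kept its call in all 29 alternatives. Of these 29, Slc2a1 lost its call in 2, Ddx21 in 5, Gnl3 in 8, Rabepk in 14, Nip7 in 16, Mthfd2 in 18 and Nop58 in 24, and Rrs1 lost it in 6 of 22. Without block 25, a setting added after seeing the data, 234 features and 9 target genes were called.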
